A study of Homo sapiens with 6 samples.

Results

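The genes described here are 33 carriers that move amino acids across the plasma membrane or out of lysosomes. They were chosen by gene name from the SLC1, SLC3, SLC6, SLC7, SLC16, SLC36, SLC38 and SLC43 families, and all 33 names were found among the 58825 genes of the table. Their RNA was measured in HK-2 cells, an immortalized line of human proximal tubular epithelium. There were 3 Control libraries, from cells described as untreated. The 3 OX-LDL libraries were from cells given 25 μg/ml OX-LDL, oxidized low-density lipoprotein, for 48 h. Per the study's methods, cells were grown in DMEM/F12 with serum and kept in low serum for some hours before treatment, and no genetic change distinguishes the groups. The labels give no vehicle and no time for the Control cultures, so a difference between groups is one between treated and untreated cultures. Nothing in the labels says whether the libraries of a group came from separate cultures or separate experiments. The p-values thus measure the spread between these 6 libraries, which may be technical.

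Amino acid carriers are named by their substrates and by the way they are driven. Sodium-driven carriers such as SLC38A1 and SLC38A2 load the cell with small neutral amino acids, mainly glutamine and alanine, and exchangers then trade amino acids from inside the cell for others, as SLC7A5 does glutamine for leucine and SLC7A11 glutamate for cystine. Such exchangers of the SLC7 family are light chains that reach the surface only when joined to a heavy chain, SLC3A2 or SLC3A1. At the lysosome, SLC38A9 and SLC36A1 work beside the growth-control kinase complex mTORC1, and SLC38A9 serves it as an arginine sensor. In the kidney, proximal tubule cells recover filtered amino acids, for which the heavy chain SLC3A1 and its partner SLC7A9 take up cystine and dibasic amino acids.

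Levels are given in FPKM, read pairs divided by transcript length and by the size of the library, which allows comparison between genes. Changes are log2 fold changes of OX-LDL against Control from edgeR's quasi-likelihood test on the deposited counts, with a standard error (SE), and a gene was called at a Benjamini-Hochberg adjusted p under 0.05 over the 19510 genes tested. Libraries held 62561347 to 76797607 deposited counts, at about 4 counts per read pair. Where all 3 libraries of a group had 12 counts or fewer, or 3 read pairs, the gene is described as not detected there, a limit that covers counting error only. The epithelial genes KRT8 (30.9 to 68.6 FPKM) and EPCAM (48.6 to 56.7) were present in every library, whereas CDH1 was at 0.144 FPKM or less. Markers of differentiated proximal tubule were low, with LRP2 at 0 counts throughout, and 4 of the 5 were above the limit in some library. The summed 4 epithelial markers were at 115 to 140 FPKM in Control and 159 to 199 in OX-LDL. The summed 4 renal epithelial markers were at 59.4 to 76.9 FPKM in Control and 32.7 to 42.2 in OX-LDL. Of these, PAX8 was at 32.6 to 58.0 FPKM in Control and 16.3 to 24.2 in OX-LDL. GGT1 did not follow, at 3.13 to 18.2 and 15.8 to 17.8 FPKM, and PAX2 and ANPEP were at 0.661 FPKM or less. Of the markers of other cell types, DCN, PTPRC, CD3E, VWF and CDH5 were not detected. The summed 3 leukocyte markers, carried by the lysosomal protein CD68, were at 2.77 to 7.56 FPKM in Control and 8.91 to 13.6 in OX-LDL. The 4 fibroblast markers summed to 0.520 to 0.743 and 0.698 to 0.966 FPKM, and the 3 endothelial markers to under 0.1 FPKM in every library. The part of these shifts in the results was not tested. In RNA from whole cultures, fewer cells of a type and less RNA per cell cannot be told apart.

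After OX-LDL, most of the well-expressed carriers were lower. Of the 33 genes, 28 reached a mean level of 0.1 FPKM and were tested. Of these 28, 18 (64.3%) were called, against 15.3% of all genes tested. The members were chosen with earlier results of these data known, so the shares describe these genes and are not an independent test. Lower levels were called for 15 members (7.42% of all genes were called lower), and higher levels for 3, SLC6A6, SLC43A2 and SLC36A4 (7.91% of all genes were called higher). Called and at least 2-fold lower were 9 of the 28 tested members, compared with 396 (2.03%) of all 19510 genes. The median log2 fold change of the 28 was -0.70, where that of all genes tested was -0.00. In 21 members the 3 OX-LDL values lay outside the 3 Control values, 16 below and 5 above, and 37.2% of all genes were separated in this way. Among the 20 members with a mean of at least 1 FPKM, 16 were called, 14 of them lower, compared with 21.4% called and 10.3% called lower of the 12259 genes at that level. Without Control replicate 2, and equally without OX-LDL replicate 3, 11 of the 28 members were called in place of 18, where 5.95% and 5.96% of all genes were called. The number called higher was 1 in place of 3 when any 1 library other than Control replicate 3 and OX-LDL replicate 2 was left out, where 3.17% to 4.88% of all genes were called higher.

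**Figure D1:**
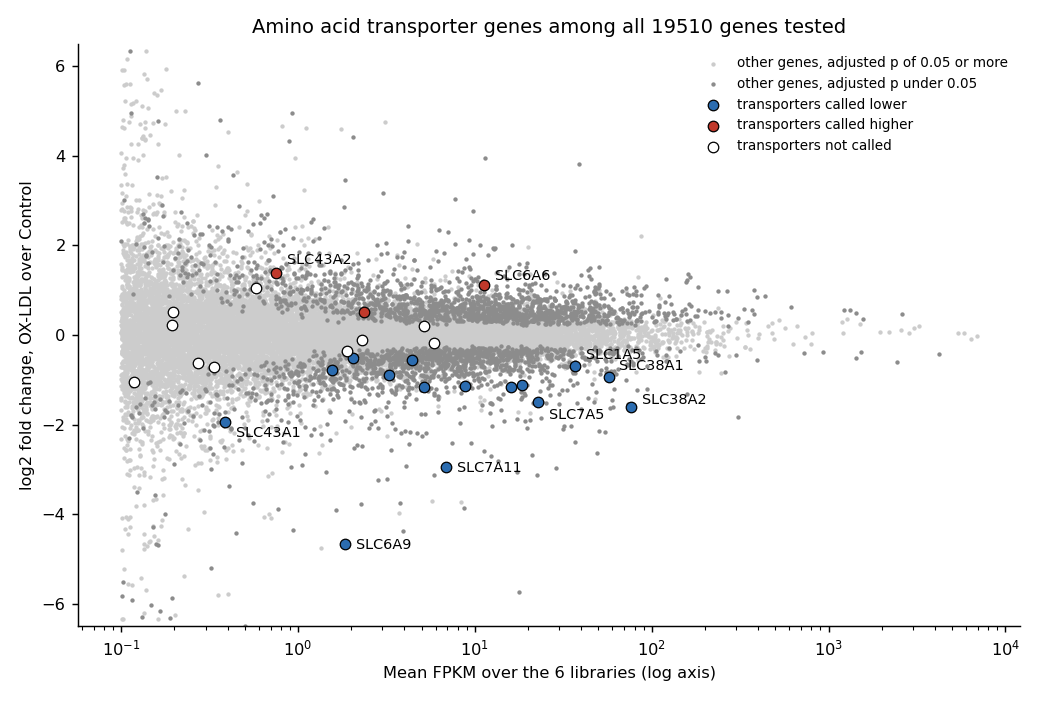
Log2 fold change of OX-LDL against Control (vertical axis) plotted against mean level (horizontal axis, log scale) for all 19510 genes tested, with the 28 tested carriers marked by whether they were called lower, called higher or not called. The called carriers run from SLC6A9 at -4.66 to SLC43A2 at 1.38, and 59 genes lie beyond the vertical axis at 6.5 in either direction.

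Summed over all 33 genes, the level was 412, 417 and 362 FPKM in Control replicates 1 to 3 and 184, 196 and 193 FPKM in OX-LDL replicates 1 to 3. The highest OX-LDL library thus lay well below the lowest Control library. The OX-LDL mean was 0.481 of the Control mean, with p = 0.1 in the exact permutation test (two-sided). That is the smallest p that 3 libraries against 3 allow, and it was 0.2 after adjustment over 3 tests. Besides this sum, the tests covered a ratio and a share of the light chains, given below. SLC38A2 accounted for 38.5% of the difference in the sum, SLC38A1 for 18.1%, SLC7A5 for 10.7% and SLC1A5 for 8.89%. The sum without SLC38A1 and SLC38A2 was 205 ± 8.03 FPKM (SD, n = 3) in Control and 115 ± 7.58 FPKM in OX-LDL, so the difference was present beyond the most abundant pair.

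**Figure D2:**
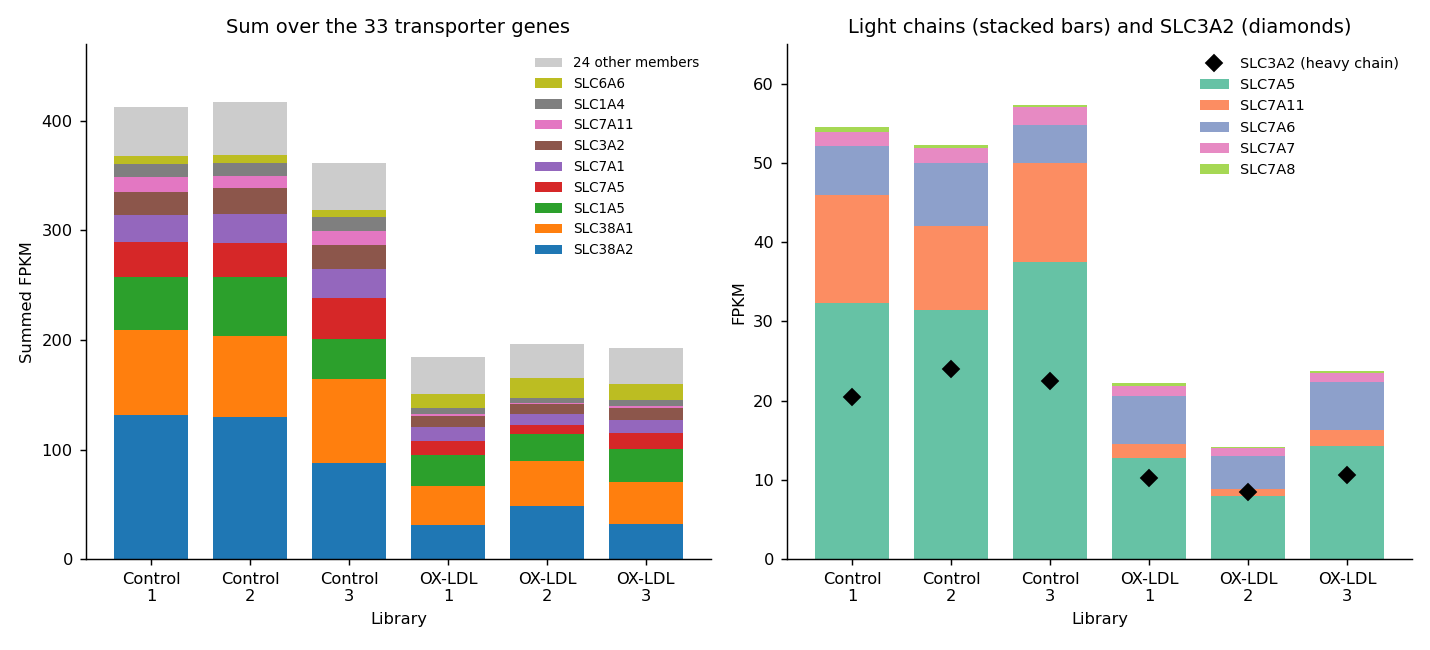
Summed FPKM of the 33 carriers in each library, stacked by gene (left), and FPKM of the 5 tested light chains, stacked, with diamonds for the heavy chain SLC3A2 (right). The summed level is 412, 417 and 362 FPKM in Control and 184, 196 and 193 in OX-LDL, and SLC38A2 and SLC38A1 form the lowest parts of each left bar.

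In Control cells, 6 genes were above 20 FPKM, in the order SLC38A2, SLC38A1, SLC1A5, SLC7A5, SLC7A1 and SLC3A2. Of the neighbours in this order, SLC1A5 and SLC7A5 overlapped between libraries, since the lowest SLC1A5 value was 36.7 and the highest SLC7A5 value 37.5 FPKM. The other neighbours were separate, SLC7A1 and SLC3A2 by the least, with 24.7 FPKM as the lowest value of SLC7A1 and 23.9 as the highest of SLC3A2. In OX-LDL cells SLC38A1 and SLC38A2 led with overlapping values, and SLC1A5 followed. SLC6A6 had rank 4 by mean level, with values that overlapped those of SLC7A5 at rank 5. In Control, 20 of the 33 members were above 1 FPKM.

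**Figure D3:**
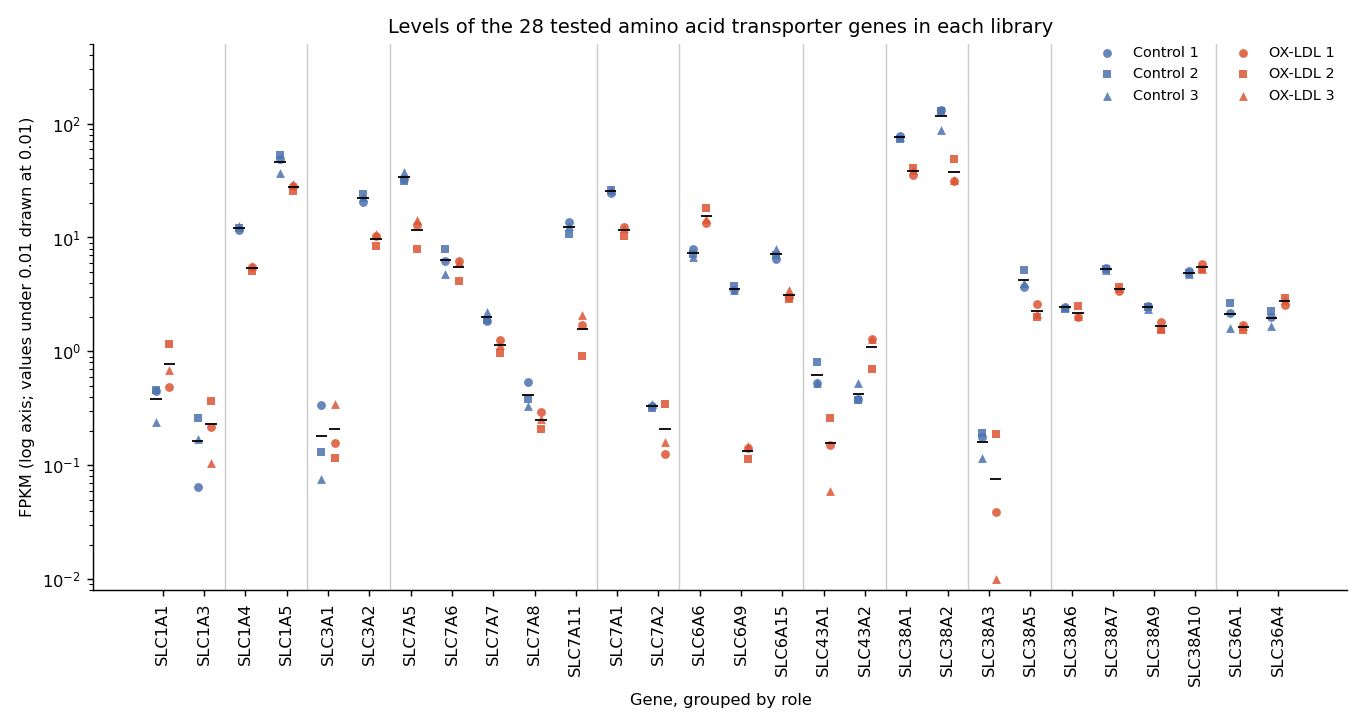
FPKM (log axis) of each of the 28 tested carriers in every library, ordered by role, with Control and OX-LDL libraries in different colours and values under 0.01 drawn at 0.01. SLC38A2 and SLC38A1 are highest, and SLC6A9 shows the widest separation between groups, 3.46 to 3.73 FPKM in Control against 0.113 to 0.147 in OX-LDL.

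The start regions of the members were searched for TGATGNAA on either strand, the core letters of the C/EBP-ATF response element, which is also known as the amino acid response element. RefSeq windows of 250 bases before to 50 bases after each start (GRCh38.p14) were matched by symbol for 25 of the 33 genes, with 46 windows in all. A match was found in 6 of the 46 windows (13.0%), compared with 3.62% of the 35116 windows of all genes. Counted by gene, 6 of 25 members (24%) and 5 of the 13 called lower with a window (38.5%) had a match, compared with 4.46% of the 27305 genes with a window. A gene counts here if any of its windows matches, and the members had more windows per gene than all genes had. A match is a description of the letters only, and no match says nothing about a factor. The stretches below are shown because they hold the letters in which these members are alike. They read 5′ to 3′ on the strand of the gene, with the matched letters in capitals. The reverse complement of the motif reads TTNCATCA.
SLC1A4: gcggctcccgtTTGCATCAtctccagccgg
SLC1A5: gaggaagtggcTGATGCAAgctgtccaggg
SLC3A2: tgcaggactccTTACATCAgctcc
SLC7A1: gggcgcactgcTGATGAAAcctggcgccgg
SLC38A1: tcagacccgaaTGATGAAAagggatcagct
SLC1A3: caggaaatgacTGATGCAAagcagggttaa
The stretch of SLC1A4 is chr2:64989381-64989410 on the plus strand, and that of SLC1A5 is chr19:46784893-46784922 on the minus strand, its match beginning 97 bases before the start. For SLC3A2 it is chr11:62881725-62881748 on the plus strand, and for SLC7A1 chr13:29595663-29595692 on the minus strand, with both matches after the start. The stretch of SLC38A1 is chr12:46266502-46266531 on the minus strand. That of SLC1A3 is chr5:36596357-36596386 on the plus strand, its match beginning 220 bases before a RefSeq start that lies upstream of the gene as the authors' table gives it. The stretches of SLC1A4, SLC1A5, SLC3A2 and SLC38A1 belong to starts inside the gene's span in that table. Of these 6 genes, 5 were called lower and SLC1A3 was not called. Called lower with a window but no match were SLC6A9, SLC7A5, SLC7A7, SLC38A2, SLC38A5, SLC38A7, SLC38A9 and SLC43A1. Members without a window were SLC1A2, SLC3A1, SLC6A6, SLC6A15, SLC7A2, SLC7A3, SLC7A11 and SLC38A3.

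SLC1A4 and SLC1A5 exchange small neutral amino acids, SLC1A5 with glutamine as a main substrate, and both were called lower. SLC1A4 (chr2:64988477-65023865, GRCh38, plus strand) was at 11.7, 12.2 and 12.7 FPKM in Control and 5.52, 5.04 and 5.56 in OX-LDL. Both groups were tight and far apart, with a log2 fold change of -1.15 (SE 0.07, adjusted p = 0.000791). SLC1A5 (chr19:46774883-46788594, minus strand) was at 48.5, 53.2 and 36.7 FPKM in Control and 28.4, 25.4 and 29.6 in OX-LDL. Control replicate 3 lay closest to the treated libraries without reaching them, and the log2 fold change was -0.70 (SE 0.14, adjusted p = 0.0217). This call did not hold when any library but Control replicate 3 was left out, with adjusted p = 0.0539 to 0.0728 and log2 fold changes of -0.59 to -0.75. Both genes have a match to TGATGNAA in their start regions, as printed with the motif.

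The heavy chain SLC3A2 (chr11:62856102-62888875, plus strand), which escorts its light chains to the cell surface, was at 20.5, 23.9 and 22.5 FPKM in Control and 10.2, 8.49 and 10.7 in OX-LDL. No treated library came near the Control range, and the log2 fold change was -1.15 (SE 0.11, adjusted p = 0.00199). SLC3A1, the heavy chain of the brush border cystine carrier, was at 0.181 ± 0.138 FPKM in Control and 0.206 ± 0.123 in OX-LDL (SD, n = 3). It was not called, with a log2 fold change of 0.23 (95% interval -1.27 to 1.72). Its partner SLC7A9 had 0, 4 and 8 counts in Control and 0 in each OX-LDL library, so it was not detected in either group.

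Of the 5 light chains tested, SLC7A11, SLC7A5 and SLC7A7 were called lower, and SLC7A6 and SLC7A8 were not called. SLC7A11 (chr4:138164097-138242349, minus strand), the cystine-glutamate exchanger that supplies cysteine for glutathione, was at 13.6, 10.6 and 12.5 FPKM in Control and 1.71, 0.918 and 2.07 in OX-LDL. Every treated library was several-fold under every Control library, with a log2 fold change of -2.94 (SE 0.30, adjusted p = 0.00272), a 7.68-fold lower level. The antisense gene SLC7A11-AS1 overlaps it, and how strand was used in counting is not given in the sources used here.

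SLC7A5 (chr16:87830023-87869507, minus strand), the light chain for leucine and other large neutral amino acids, was at 32.3, 31.4 and 37.5 FPKM in Control and 12.8, 7.94 and 14.2 in OX-LDL. OX-LDL replicate 2 was the lowest, and the log2 fold change was -1.50 (SE 0.21, adjusted p = 0.00768). Reads shared with the near copies SLC7A5P1 and SLC7A5P2 could be split in counting, but these had at most 63 counts in a library, where SLC7A5 had at least 3435. SLC7A7, a light chain for cationic and neutral amino acids, was at 1.98 ± 0.192 FPKM in Control and 1.13 ± 0.145 in OX-LDL (SD, n = 3), a log2 fold change of -0.78 (SE 0.15, adjusted p = 0.0187). Its call was lost without Control replicate 2 (adjusted p = 0.0582), Control replicate 3 (0.0537) or OX-LDL replicate 3 (0.0654). SLC7A8, a neutral amino acid light chain at 0.418 ± 0.109 and 0.251 ± 0.0424 FPKM, had a log2 fold change of -0.70 (95% interval -1.34 to -0.06, adjusted p = 0.134).

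SLC7A6, which like SLC7A7 handles cationic and neutral amino acids, was not called, and no test compared it with the called light chains. It was at 6.31 ± 1.62 FPKM in Control and 5.46 ± 1.12 in OX-LDL (SD, n = 3), with overlapping groups and a log2 fold change of -0.18 (95% interval -0.69 to 0.34, adjusted p = 0.646). As a description with no test, SLC7A11 made up 22.4% ± 2.36 of the summed light chain FPKM in Control and 7.61% ± 1.12 in OX-LDL, and SLC7A6 made up 11.6% ± 3.49 and 27.5% ± 1.95. The SLC7A6 to SLC3A2 ratio of FPKM was 0.302, 0.333 and 0.211 in Control and 0.604, 0.491 and 0.567 in OX-LDL. That ratio was higher in each treated library than in any Control library, whereas the SLC7A11 to SLC3A2 ratio was lower, at 0.665, 0.444 and 0.557 against 0.167, 0.108 and 0.194.

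The summed light chains were at 54.7 ± 2.53 FPKM in Control and 20.1 ± 5.12 in OX-LDL (SD, n = 3), and their ratio to SLC3A2 was 2.66, 2.18 and 2.55 in Control and 2.18, 1.67 and 2.23 in OX-LDL. The groups overlapped in this ratio (exact permutation test, two-sided, p = 0.2, adjusted p = 0.2). The SLC7A5 share of the light chains was 59.3%, 60.1% and 65.4% in Control and 57.5%, 55.9% and 59.9% in OX-LDL. These values also overlapped (exact permutation test, two-sided, p = 0.2, adjusted p = 0.2). With SLC7A11 left out of the light chains, the SLC7A5 share was 79.0%, 75.4% and 83.7% in Control and 62.3%, 59.7% and 65.6% in OX-LDL, without overlap.

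Of the cationic carriers, which bring in arginine, lysine and ornithine, only SLC7A1 was well expressed. SLC7A1 (chr13:29509414-29595688, minus strand) was at 24.7, 26.3 and 26.0 FPKM in Control and 12.2, 10.2 and 12.2 in OX-LDL. Each group was narrow, and the log2 fold change was -1.12 (SE 0.09, adjusted p = 0.00147). SLC7A2 was at 0.333 ± 0.0138 FPKM in Control and 0.209 ± 0.117 in OX-LDL (SD, n = 3), with a log2 fold change of -0.63 (95% interval -1.55 to 0.29, adjusted p = 0.330). OX-LDL replicate 2 lay inside the Control range, and without it SLC7A2 was called lower, at -1.18 (adjusted p = 0.0287). Over its alternatives the adjusted p of SLC7A2 ran from 0.0287 to 0.591. SLC7A3 had 0 counts in every library.

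**Figure D4:**
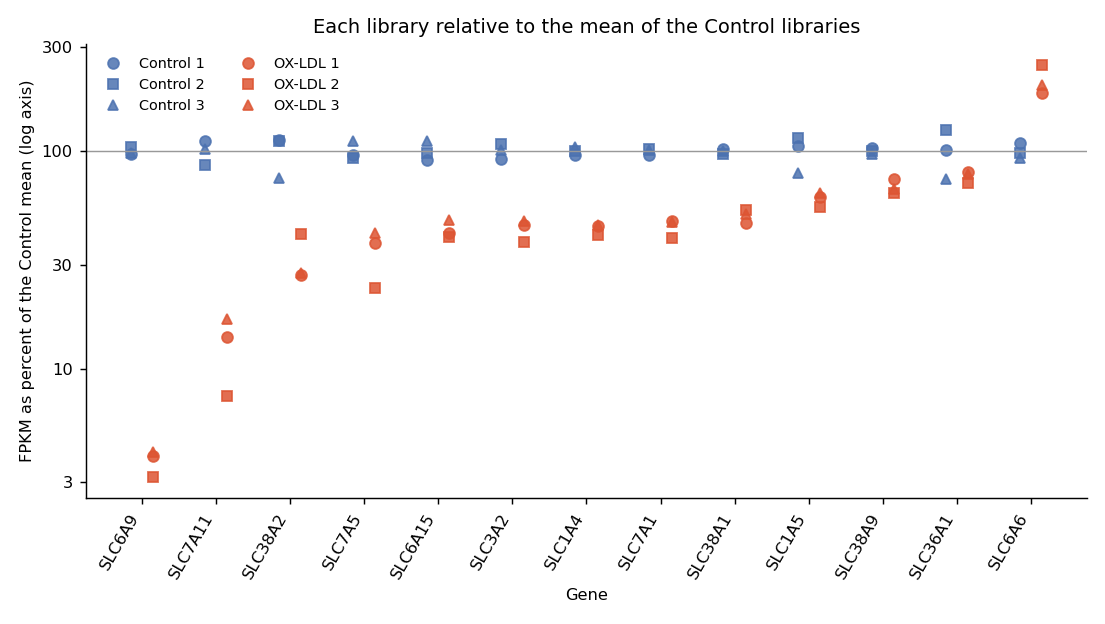
FPKM of selected carriers in each library as a percent of the mean of the 3 Control libraries (log axis), with Control in blue, OX-LDL in red, a symbol for each replicate number and a line at 100%. SLC6A9 libraries under OX-LDL sit at 3.17% to 4.13% and SLC7A11 libraries at 7.49% to 16.9% of the Control mean.

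The 3 SLC6 genes among the members, carriers driven by sodium and chloride, were each called, in different directions. SLC6A9 (chr1:43991500-44031462, minus strand), the glycine carrier GlyT1, was at 3.46, 3.73 and 3.46 FPKM in Control and 0.140, 0.113 and 0.147 in OX-LDL. This was the lowest fold change among the members, -4.66 on the log2 scale (SE 0.16, adjusted p = 0.000195), or a 25.3-fold lower level. The treated libraries still held 55, 54 and 71 counts, above the limit of 12. CCDC24 overlaps SLC6A9 on the other strand.

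SLC6A15 (chr12:84859491-84912825, minus strand), a carrier of branched-chain amino acids and proline, was at 6.51, 7.02 and 7.97 FPKM in Control and 3.01, 2.89 and 3.46 in OX-LDL. Its groups did not overlap, and the log2 fold change was -1.17 (SE 0.11, adjusted p = 0.00222). SLC6A6 (chr3:14402576-14489349, plus strand), the taurine carrier, moved the other way. Its levels were 7.86, 7.12 and 6.72 FPKM in Control and 13.4, 18.1 and 14.6 in OX-LDL, so that every treated library was above every Control library. The log2 fold change was 1.12 (SE 0.13, adjusted p = 0.00452). By mean level SLC6A6 had rank 9 of the 33 genes in Control, where its values overlapped those of SLC6A15 and SLC7A6. In OX-LDL it had rank 4, with values that overlapped those of SLC7A5. GRIP2 overlaps SLC6A6 on the other strand.

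Among the facilitated carriers, which need no ion gradient, SLC43A1 and SLC43A2 both carry large neutral amino acids such as leucine. SLC43A1 was at 0.620 ± 0.168 FPKM in Control and 0.155 ± 0.0994 in OX-LDL (SD, n = 3). Its log2 fold change of -1.95 (SE 0.52) had an adjusted p of 0.04995, and the call was lost without any 1 of the libraries other than OX-LDL replicate 2, at adjusted p = 0.0764 to 0.148. SLC43A2 was higher, at 0.426 ± 0.0874 FPKM in Control and 1.09 ± 0.335 in OX-LDL (SD, n = 3), with a log2 fold change of 1.38 (SE 0.28, adjusted p = 0.0208). Leaving out any 1 library other than Control replicate 3 and OX-LDL replicate 2 ended the call of SLC43A2, with adjusted p = 0.0678 to 0.0809. SLC16A10, an aromatic amino acid carrier, was not tested, with 12, 8 and 39 counts in Control and 25, 57 and 43 in OX-LDL.

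System A carriers, which take up small neutral amino acids with sodium, held the most abundant members. SLC38A2 (chr12:46358188-46372773, minus strand) was at 131, 130 and 88.0 FPKM in Control and 31.3, 48.4 and 32.0 in OX-LDL. Control replicate 3 was low for its group yet above every treated library, and the log2 fold change was -1.61 (SE 0.23, adjusted p = 0.00743). SLC38A1 (chr12:46183063-46269951, minus strand) was at 75.8 ± 1.91 FPKM in Control and 38.5 ± 2.67 in OX-LDL (SD, n = 3), a log2 fold change of -0.95 (SE 0.08, adjusted p = 0.00156). The SLC38A2 to SLC38A1 ratio of FPKM was 1.70, 1.77 and 1.16 in Control and 0.881, 1.18 and 0.820 in OX-LDL, with overlap between the groups. Both genes lie side by side on chromosome 12, 88.2 kb apart with no gene of the table between them. The related gene SLC38A4 lies further on, beyond 7 other genes. It had 19, 19 and 8 counts in Control and 1, 0 and 0 in OX-LDL, where it was not detected, and it was not tested. Its scaled Control mean was 1.21-fold the limit of 12 counts per OX-LDL library. That value allows no error in the few Control counts, so it sets no firm bound.

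**Figure D5:**
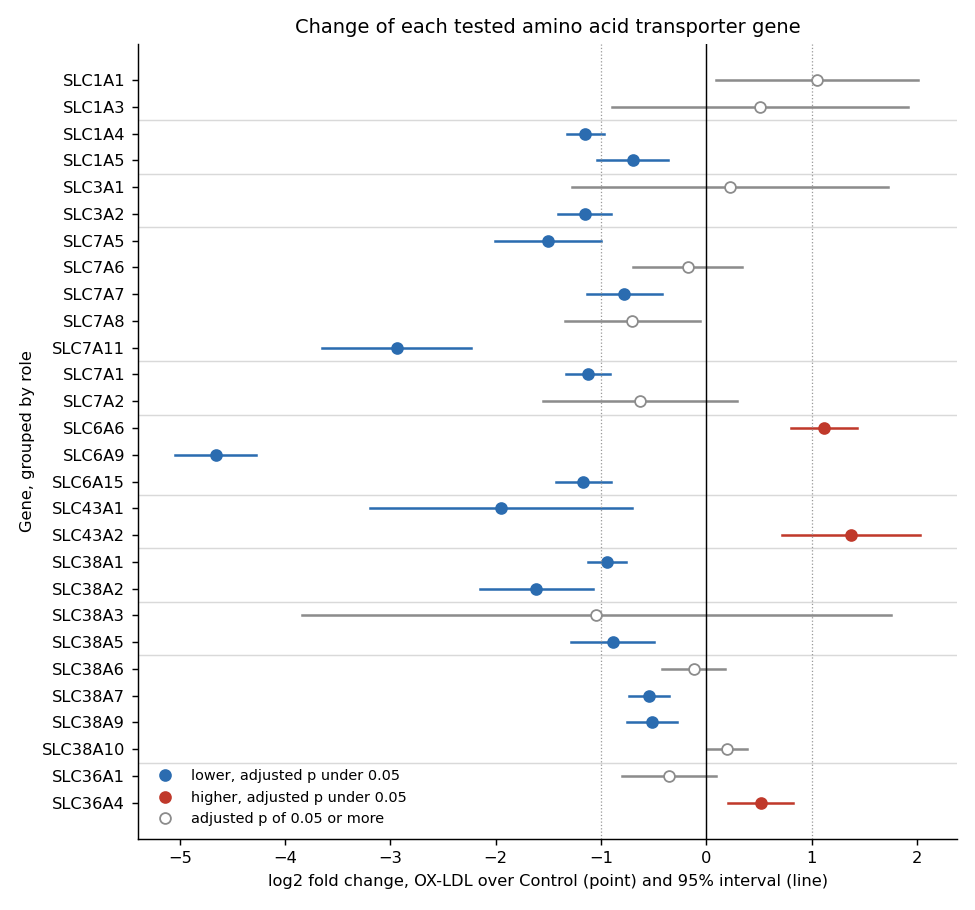
Log2 fold change of OX-LDL against Control with its 95% interval for each of the 28 tested carriers, grouped by role, with genes called lower in blue, called higher in red and not called as open points. SLC6A9 lies lowest at -4.66, followed by SLC7A11 at -2.94, and SLC43A2 lies highest at 1.38.

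System N carriers couple glutamine, asparagine and histidine uptake to proton exchange. SLC38A5 was called lower, at 4.26 ± 0.777 FPKM in Control and 2.24 ± 0.323 in OX-LDL (SD, n = 3), with a log2 fold change of -0.89 (SE 0.17, adjusted p = 0.0171). Without Control replicate 2 (adjusted p = 0.0567) or OX-LDL replicate 3 (0.0680), it was not called. SLC38A3, the system N carrier of kidney and liver, was at 0.161 ± 0.0406 FPKM in Control and, in OX-LDL, at 12, 69 and 0 counts. It was not called, with a log2 fold change of -1.04 (95% interval -3.84 to 1.75).

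The remaining SLC38 genes and the SLC36 genes include the lysosomal carriers. SLC38A7, a lysosomal glutamine carrier, was lower, at 5.30 ± 0.10 FPKM in Control and 3.54 ± 0.133 in OX-LDL (SD, n = 3), with a log2 fold change of -0.55 (SE 0.08, adjusted p = 0.00829). SLC38A9 (chr5:55625845-55712298, minus strand), the arginine sensor, was at 2.50, 2.43 and 2.35 FPKM in Control and 1.81, 1.55 and 1.62 in OX-LDL. The groups were separate, with a log2 fold change of -0.52 (SE 0.10, adjusted p = 0.0193), but the call was lost without Control replicate 1 (adjusted p = 0.0621), Control replicate 2 (0.0646) or OX-LDL replicate 3 (0.0730).

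SLC36A1 (chr5:151437046-151492379, plus strand), the proton-driven carrier of small amino acids at the lysosome, was at 2.16, 2.67 and 1.59 FPKM in Control and 1.71, 1.53 and 1.68 in OX-LDL. Control replicate 3 lay among the treated libraries, and SLC36A1 was not called (log2 fold change -0.35, 95% interval -0.80 to 0.10, adjusted p = 0.267). SLC36A4, a carrier with high affinity for proline and tryptophan, was at 1.97 ± 0.290 FPKM in Control and 2.76 ± 0.194 in OX-LDL (SD, n = 3). It was called higher, with a log2 fold change of 0.52 (SE 0.13, adjusted p = 0.0415), but not when any 1 library was left out (adjusted p = 0.0615 to 0.123). SLC38A6 and SLC38A10, whose substrates are less well defined, were not called. SLC38A6 was at 2.43 ± 0.0738 and 2.18 ± 0.263 FPKM and had a log2 fold change of -0.12 (95% interval -0.42 to 0.18). SLC38A10 was at 4.90 ± 0.164 and 5.48 ± 0.359 FPKM, higher in each treated library, with a log2 fold change of 0.19 (95% interval 0.00 to 0.39, adjusted p = 0.159).

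The 3 glutamate and aspartate carriers of the SLC1 family among the members, SLC1A1, SLC1A2 and SLC1A3, were scarce, and none was called. SLC1A1 was at 0.384 ± 0.123 FPKM in Control and 0.780 ± 0.352 in OX-LDL (SD, n = 3), higher in each treated library than in any Control library. Its log2 fold change of 1.05 (95% interval 0.09 to 2.01) did not pass the test, at adjusted p = 0.133. SLC1A3 was at 0.165 ± 0.0972 and 0.230 ± 0.132 FPKM, with a log2 fold change of 0.51 (95% interval -0.89 to 1.91). SLC1A2 had 4 counts in 1 OX-LDL library and 0 in the others, so that SLC1A2, SLC7A3 and SLC7A9 were not detected in either group.

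Other amino acid carriers were read beside the 33, from a list of 17 further plasma membrane genes, 6 further lysosomal carriers and 10 mitochondrial carriers. The plasma membrane genes include CLTRN, a partner protein of carriers rather than a carrier, which was tested and not called. Of the 33 genes of this list, 17 were tested and 5 called, 4 lower and 1 higher (29.4%, against 15.3% of all genes). Their median log2 fold change was -0.10. CTNS, the lysosomal cystine exporter, was at 6.84, 7.80 and 6.41 FPKM in Control and 3.68, 3.62 and 3.61 in OX-LDL (log2 fold change -0.91, SE 0.10, adjusted p = 0.00409). SLC17A5, the lysosomal sialic acid carrier that also handles acidic amino acids, had a log2 fold change of -0.80 (SE 0.14, adjusted p = 0.0151). SLC7A10, a light chain for small neutral amino acids, was called lower at -2.23 (SE 0.42, adjusted p = 0.0176) from 0.871 to 0.178 FPKM. Of the mitochondrial carriers, SLC25A44, which takes in branched-chain amino acids, was lower at -0.38 (SE 0.08, adjusted p = 0.0227), and SLC25A15, the ornithine carrier, was higher at 0.59 (SE 0.12, adjusted p = 0.0205). The number called was 1 of the 17 without Control replicate 2 (5.95% of all genes) or OX-LDL replicate 3 (5.96%), a share near that of all genes. It was 2 without OX-LDL replicate 1 (6.47% of all genes) and 3 without Control replicate 1 (9.21%).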

How the data were processed

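RNA-seq libraries of poly(A) RNA from HK-2 cells, 3 Control and 3 OX-LDL, were grouped by their labels. The authors deposited 1 table of estimated counts, whole numbers that were not scaled, and of FPKM values, in which each count of 0 is listed at 0.0001. The submitters' processing notes name cutadapt (version 1.9), HISAT2 (version 2.0.4), StringTie (version 1.3.4d), edgeR, DESeq2 and GRCh38. The strand setting of counting is not given in the sources used here. In GENCODE release 29, 58552 of the table's identifiers were found, 47519 of them at the same coordinates, including 12 of the 33 members. Genes at 4, 8 and 12 counts were in excess (3.00 to 3.58, 2.59 to 3.31 and 1.97 to 2.26 times their neighbours), from which about 4 counts per read pair were taken. On these counts, which are not independent read pairs, TMM scaling was followed by edgeR's quasi-likelihood test (edgeR version 4.0.16, R version 4.3.3) with no term but the group, over 19510 genes whose mean reached 0.1 FPKM and with Benjamini-Hochberg adjustment. The SE was obtained from the log2 fold change and the F statistic. Summed levels and ratios were tested by exact permutation over libraries. Promoter windows are from RefSeq.

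The members and lists were chosen with earlier results of these data known. Named with a value for each library were members whose mean reached 1 FPKM with an adjusted p under 0.05 and a log2 fold change of at least 1 in size, and SLC3A2, SLC7A5, SLC7A11, SLC1A5, SLC38A9, SLC36A1 and SLC6A6 whatever their values. The other members are given by means, SD or counts, and of the other carriers the called ones are named. Among the other carriers, SLC66A1 was matched by its identifier to the older name PQLC2. Of the 33 members, 22 overlap another gene, 10 on the same strand and 18 on the other. Chi-square values between libraries of a group were 15.7 to 27.3 per gene, above sampling noise, so no library was taken as deposited again. This does not show that the libraries came from separate cultures. The fit was tested on simulated data with 200 changed genes. It recovered 60.5% of them, 81.7% of the 4-fold and 35.2% of the 2-fold changes, with 5 false calls. The simulated counts were independent draws with the spread that the fit had estimated, and the changed genes left out those with the lowest counts. The deposited counts are not independent read pairs, so these rates may not hold for them. Alternatives were other scalings, DESeq2 (version 1.42.0), limma (version 3.58.1) on log2(FPKM + 0.1) and log2(FPKM + 1), other minimum levels, counts divided by 4, a replicate block, TPM-rescaled sums and each library left out in turn.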

Additional observations from a re-analysis of the deposited data

How the results depend on the processing

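Over 15 alternatives, 11 of the 18 called members were called in every alternative that tested them, and no called member turned direction. SLC1A5, SLC7A7, SLC38A5, SLC38A9, SLC36A4, SLC43A1 and SLC43A2 lost their call in 1 or more. Of 412 values of single members, 369 kept direction and side of the threshold, 38 lost the call, 2 gained it (SLC1A1 with DESeq2, adjusted p = 0.0427 in a range of 0.0427 to 0.296, and SLC7A2 without OX-LDL replicate 2) and 3 reversed, each of a gene not called. The reversed values were those of SLC3A1, -0.13 without Control replicate 3 and -0.36 with OX-LDL replicate 3 left out (-0.36 to 1.03 over the libraries left out), and SLC7A6, 0.016 without Control replicate 2 (-0.34 to 0.016). With a library left out, 11 to 17 of the 28 members tested were called, against 5.95% to 15.1% of all genes. Members higher ranged from 1 to 2, where 3.17% to 7.55% of all genes were called higher. Members lower ranged from 10 to 15 and other carriers called from 1 to 5, with fewer libraries behind each test. In the other alternatives, 13 to 19 members were called, against 7.46% to 25.7% of all genes. The number of members tested was 32 with no minimum level, 20 with a minimum of 1 FPKM and 28 otherwise. The replicate block called 13 members, 11 lower and 2 higher, and 1636 genes in all (8.39%) in place of 2991 (15.3%). It lost the calls of SLC1A5 (adjusted p = 0.0680), SLC7A7 (0.0510), SLC38A5 (0.0613), SLC38A9 (0.0524) and SLC36A4 (0.0761). Deviations of same-numbered libraries correlated at -0.041, -0.00313 and 0.0356, and not every library correlated best with its own number. These values give no sign of pairing by number, but with 3 libraries a group they cannot exclude it. The call of SLC36A4 was also lost with library totals only, with either limma fit and with no minimum level (adjusted p = 0.0515 to 0.0716), and that of SLC43A1 with no minimum level (0.0650). Without SLC38A2, the summed level in OX-LDL was 0.549 of Control in place of 0.481. Without SLC7A11, the light chains to SLC3A2 ratio in OX-LDL was 0.979 of Control in place of 0.822, and the SLC7A5 share was 0.788 of Control in place of 0.938, with the groups no longer overlapping. Across all genes the number called ran from 1161 without Control replicate 2 to 4430 with DESeq2. No scaling moved the median of all genes by more than 0.1 on the log2 scale. With 3 libraries a group, the exact permutation test cannot give a p below 0.1, and members not called may still differ.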
